A study of Rattus norvegicus with 6 samples.

Results

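The genes described here are 29 transcripts that mark lymphocytes, with Cd52, a leukocyte surface gene, set apart from 18 T cell, 5 B cell and 5 cytotoxic cell genes. They were chosen by name, with earlier results of these data known, and read from 1 series of single-colour arrays of rat renal cortex. Of the 29, 27 had at least 1 probe whose accession matched their RefSeq entry and 24 were bright enough to be tested, among 31087 genes tested in all. No probe matched Cd79a or Ms4a1, and both are not analysed here. Cd5, Cd28 and Blk had a probe that was too dim for the test.

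The animals of both groups were male Sprague-Dawley rats (Crl:CD(SD)), bought at 5 weeks of age and kept on a basal diet. The o-anisidine group received o-anisidine hydrochloride, the salt of an aromatic amine, at 700 mg/kg/day for 4 weeks, and the group labelled VC received water for the same time. Each group had 3 animals and each animal 1 array, and the labels name no route. Probes well above background numbered 41670 to 42766 on o-anisidine arrays and 43075 to 43630 on VC arrays, out of 61657. Of 11 genes that mark proximal tubule, thick limb, distal tubule, collecting duct and podocyte, all were well above background on every array and none passed the test. The smallest p among them belonged to Aqp2, a water channel of the collecting duct (log2 difference -0.58, SE 0.22, adjusted p = 0.412, limma), and Podxl of podocytes (-0.31, SE 0.13, adjusted p = 0.44). All VC arrays and o-anisidine 3 lay on 1 slide, and o-anisidine 1 and 2 lay on another.

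T cells recognise peptides through a receptor whose CD3 chains pass the signal to the kinases Lck and Zap70, while CD4 or CD8 holds the presenting molecule. B cells signal through the Cd79a and Cd79b chains of their own receptor, and cytotoxic T cells and natural killer (NK) cells kill with perforin and granzymes. A healthy renal cortex holds few lymphocytes, in the interstitium and in blood. CD52 is a very short glycoprotein anchored in the membrane by a lipid, found in humans on lymphocytes, monocytes and eosinophils, and on epithelium of the epididymis.

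Promoter windows of members whose differences the text turns on are shown with matches to short motifs, so that Cd52 can be set beside Il21r, Prf1 and Nkg7, whose log2 differences were below 0 without passing the threshold. Each window runs from 250 bases before to 50 bases after the annotated start, 5′ to 3′ on the gene's strand, from RefSeq on the GRCr8 assembly. Of the 29 members, 19 had a window (20 windows, since Lck had 2). Capitals mark matches to short motifs on either strand, none of which overlapped another in the windows shown. The letters GGAAGT were searched for the ETS family of transcription factors. For the RUNX family, which works in T and NK cells, the search used the letters TGTGGT. The GATA family was represented by the letters AGATAA. The core motif of the aryl hydrocarbon receptor, a sensor of aromatic compounds, was taken as GCGTG.
Cd52 (chr5:151605047-151605346, minus strand): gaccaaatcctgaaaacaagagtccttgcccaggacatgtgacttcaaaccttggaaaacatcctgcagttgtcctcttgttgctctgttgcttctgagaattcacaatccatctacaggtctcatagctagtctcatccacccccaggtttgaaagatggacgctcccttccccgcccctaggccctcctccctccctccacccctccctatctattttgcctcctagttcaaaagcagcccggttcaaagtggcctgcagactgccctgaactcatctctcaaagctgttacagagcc
Il21r (chr1:189598503-189598802, plus strand): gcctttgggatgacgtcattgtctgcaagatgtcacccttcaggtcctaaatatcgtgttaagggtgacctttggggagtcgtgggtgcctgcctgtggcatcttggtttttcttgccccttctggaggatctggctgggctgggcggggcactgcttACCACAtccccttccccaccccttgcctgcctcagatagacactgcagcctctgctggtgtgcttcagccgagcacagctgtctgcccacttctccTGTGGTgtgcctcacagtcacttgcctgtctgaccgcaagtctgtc
Prf1 (chr20:29788790-29789089, plus strand): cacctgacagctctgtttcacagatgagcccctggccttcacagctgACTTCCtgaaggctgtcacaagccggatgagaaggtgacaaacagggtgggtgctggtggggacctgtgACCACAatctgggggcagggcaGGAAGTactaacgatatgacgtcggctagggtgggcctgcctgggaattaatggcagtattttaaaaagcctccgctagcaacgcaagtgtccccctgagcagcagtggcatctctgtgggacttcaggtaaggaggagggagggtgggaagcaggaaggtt
Nkg7 (chr1:102981247-102981546, plus strand): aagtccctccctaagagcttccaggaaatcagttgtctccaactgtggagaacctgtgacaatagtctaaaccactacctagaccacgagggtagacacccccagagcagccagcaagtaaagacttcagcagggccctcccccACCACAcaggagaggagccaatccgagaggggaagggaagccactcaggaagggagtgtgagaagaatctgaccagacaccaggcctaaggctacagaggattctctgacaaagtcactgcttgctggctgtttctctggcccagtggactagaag
The Cd52 window held none of the 4 motifs. Neither did the windows of Cd27, Cd3g, Cd8a and Zap70, whose log2 differences were below 0. The RUNX letters stood once in the windows of Prf1 and Nkg7, 2 times in that of Il21r and 3 times in that of Gzmb. Over the members, 8 of 20 windows held the RUNX letters, against 17.3% of 33469 windows of the same length in the table. The ETS letters were in 9 of 20 member windows, against 22.6% of all, the GATA letters in 1 (Cd28), against 11.6%, and the receptor core in 3 (Cd5, Cd22 and Cd79a), against 29.7%. These are matches of letters, chosen with the genes' values known.

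Cd52 was 4.36 times as bright after o-anisidine as in VC, while no T, B or cytotoxic gene of the list was higher past the threshold. The 5 cytotoxic genes (Prf1, Gzmb, Nkg7, Il2rb and Klrd1) all had values below 0 for the difference, at 0.691 to 0.834 of the VC level. None of the 4 measured genes of the T cell receptor complex (Cd3d, Cd3e, Cd3g and Cd247) passed the threshold. Of the T cell genes, the cytokine receptor gene Il21r had the largest difference, at 0.64 of the VC level. Across the 24 tested members 1 passed the threshold, Cd52, against 0.0611% of all genes tested in either direction and 0.0257% for lower calls (limma, two-sided, Benjamini-Hochberg adjusted p under 0.05).

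Values below are log2 signals relative to the 75th percentile of the array, so 0 is as bright as that percentile. Levels of different genes come from different probes and are not compared. Cd52 read 0.94, 0.60 and 0.43 in treated animals 1, 2 and 3, against -1.37, -1.73 and -1.30 in VC animals 1, 2 and 3. Every treated animal lay above every VC animal, and the gap between the groups was far wider than the spread within either. On the linear scale, Cd52 stood at 1.92, 1.51 and 1.35 times the 75th percentile after o-anisidine and at 0.387, 0.301 and 0.406 times it in VC. The log2 difference was 2.12 (SE 0.17), a 4.36-fold rise with a 95% interval of 3.25 to 5.85, from group means of 0.66 ± 0.26 after o-anisidine and -1.47 ± 0.23 in VC (SD, n = 3 each; limma with Benjamini-Hochberg adjustment over all genes, adjusted p = 0.038). Genes called higher made up 0.0354% of all tested, and the log2 difference of Cd52 ranked 34 from the top of 31087. A single probe measured it.

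The Cd52 call rests on all 6 arrays. Without any 1 of them the log2 difference stayed between 1.98 and 2.24 and the adjusted p was 0.0601 to 0.129 (limma), above the threshold each time. On the slide shared by both groups the difference was 1.90 (SE 0.21, adjusted p = 0.178), and with slide as a block it was 1.90 (SE 0.23, adjusted p = 0.151).

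**Figure D1:**
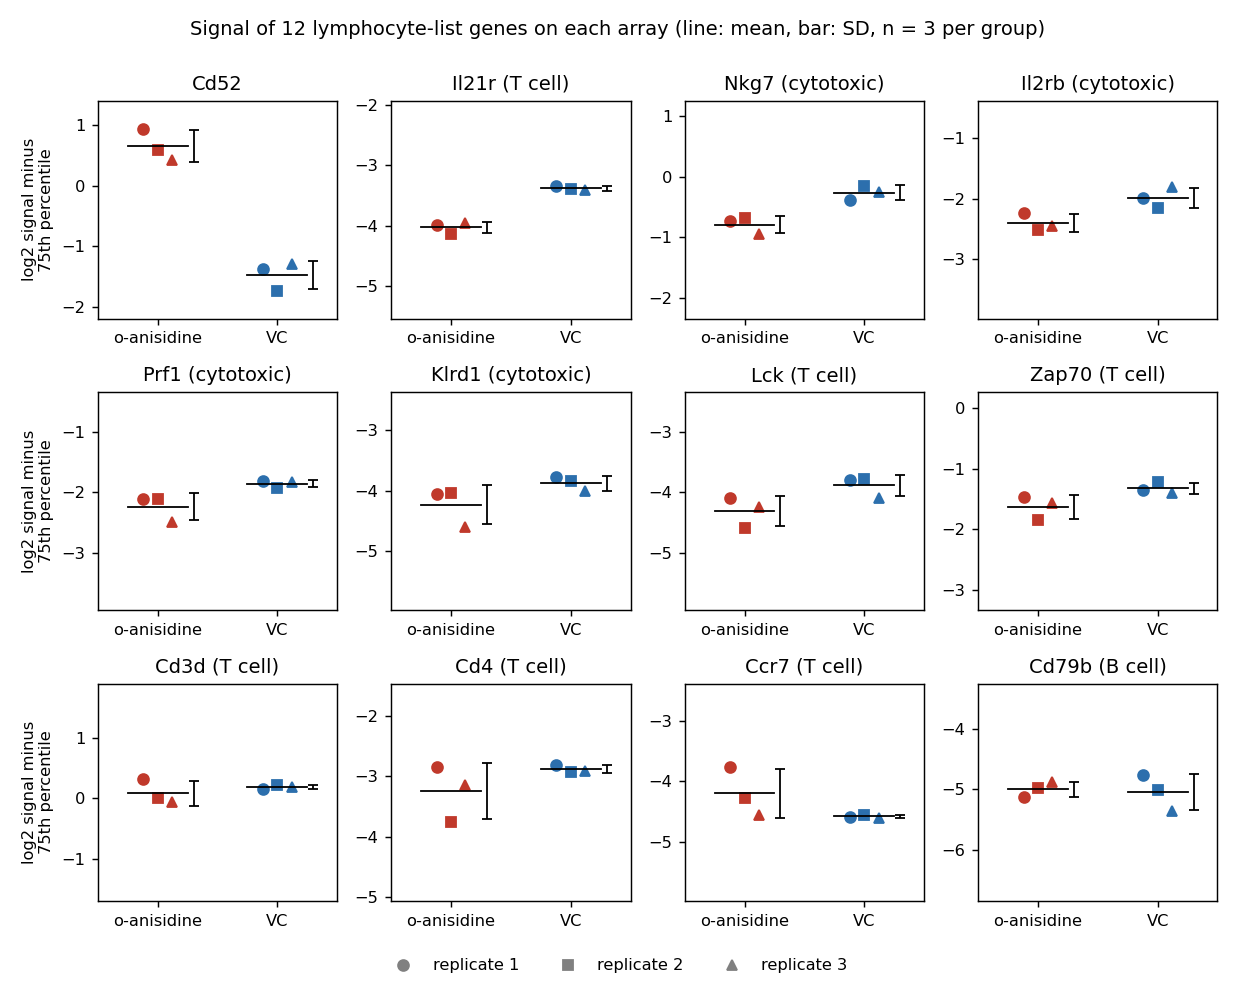
Log2 signal relative to the array's 75th percentile (y axis, the same span in each panel) for 12 members on the 3 o-anisidine arrays (red, left) and the 3 VC arrays (blue, right), with the mean as a line and the SD as a bar. Cd52 stands at 0.43 to 0.94 after o-anisidine and at -1.73 to -1.30 in VC, whereas Il21r, Nkg7, Il2rb, Prf1, Klrd1, Lck and Zap70 are lower on every treated array by a smaller step.

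The 4 measured genes of the T cell receptor complex lay close to their VC levels, and none passed the test. Cd3d, a CD3 chain, read 0.31, 0.00 and -0.07 after o-anisidine, against 0.15, 0.21 and 0.19 in VC. The treated arrays straddled the VC range, and the log2 difference was -0.11 (SE 0.11, adjusted p = 0.757, limma). Cd3e, the chain that pairs with both Cd3d and Cd3g, read -4.59, -4.66 and -4.60 after o-anisidine and -4.59, -4.34 and -4.61 in VC. Its difference was -0.10 (SE 0.09), with a 95% interval of -0.33 to 0.13. Cd3g read -1.13, -1.48 and -1.20 after o-anisidine and -1.03, -1.02 and -1.15 in VC, a difference of -0.20 (SE 0.11). Cd247, which encodes the zeta chain that carries most of the receptor's signalling motifs, read -1.65, -2.25 and -1.64 after o-anisidine and -1.87, -1.71 and -2.09 in VC. Its groups overlapped fully, with a difference of 0.04 (SE 0.20) that turned to -0.06 without VC 3, o-anisidine 1 or o-anisidine 3. The median log2 difference of these 4 genes was -0.10, against 0.00 over all genes tested.

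Both kinases of the receptor were lower on each treated array than on any VC array, without passing the threshold. Lck, which phosphorylates the CD3 chains, read -4.09, -4.58 and -4.24 after o-anisidine, against -3.79, -3.77 and -4.09 in VC. Its brightest treated array and its dimmest VC array were level to the second decimal. The log2 difference was -0.42 (SE 0.16, adjusted p = 0.402), and -0.13 (adjusted p = 0.453) with normexp background correction, within a range of adjusted p of 0.246 to 0.704 over the alternatives. Zap70, which docks on the phosphorylated chains, read -1.47, -1.85 and -1.57 after o-anisidine and -1.35, -1.22 and -1.40 in VC (log2 difference -0.31, SE 0.12, adjusted p = 0.423).

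The coreceptors were variable among treated animals. Cd4, whose protein marks helper T cells and in rats also macrophages, read -2.85, -3.75 and -3.14 after o-anisidine, against -2.81, -2.93 and -2.91 in VC. VC animals were tightly grouped, and o-anisidine 1 lay among them while o-anisidine 2 lay well below (log2 difference -0.37, SE 0.22, adjusted p = 0.58). A dimmer Cd4 probe gave -0.61 (SE 0.10), with 2 of 3 treated arrays well above background. Cd8a, which marks killer T cells, read -3.75, -4.03 and -4.39 after o-anisidine and -3.64, -3.17 and -3.97 in VC (-0.47, SE 0.25). Cd8b, its partner chain, read -2.06, -2.89 and -2.62 after o-anisidine and -2.54, -2.42 and -2.75 in VC. Its brighter probe gave 0.04 (SE 0.22) and its dimmer one -0.30 (SE 0.08), so the probes disagreed in direction.

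Costimulatory and adhesion receptors of T cells had differences from -0.40 to -0.05. Cd2, which binds CD48 in rodents, read -4.21, -5.11 and -4.75 after o-anisidine and -4.32, -3.89 and -4.68 in VC (-0.40, SE 0.29). Cd6, which binds ALCAM, read -0.42, -0.73 and -0.43 after o-anisidine and -0.40, -0.26 and -0.34 in VC. All 3 treated arrays were lower, by a log2 difference of -0.20 (SE 0.11, adjusted p = 0.543), and its other 3 kept probes gave -0.15, -0.19 and -0.41. The probe with -0.41 was well above background on 2 of 3 treated arrays and was kept only through the VC group. Cd27, a receptor of the TNF receptor family, read -2.75, -3.40 and -3.35 after o-anisidine and -3.04, -2.72 and -3.09 in VC (-0.22, SE 0.20). Cd7, an immunoglobulin-family receptor of T and NK cells, read -0.45, -1.86 and -0.81 after o-anisidine and -1.05, -1.14 and -0.79 in VC. Its treated animals spread more widely than the VC animals, above and below them, on the bright probe (-0.05, SE 0.36) and on the dim probe (0.07, SE 0.40), and the bright probe gave 0.36 without o-anisidine 2. Cd5, a brake on receptor signalling, was well above background on 1 o-anisidine array and 2 VC arrays. Cd28, the main costimulator of naive T cells, was so on 0 o-anisidine and 2 VC arrays, and no fold is given for either.

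Of the receptors for cytokines and chemokines, none passed the threshold. Il21r encodes the receptor of interleukin 21, which T, B and NK cells carry, and it read -3.99, -4.13 and -3.96 after o-anisidine, against -3.34, -3.40 and -3.41 in VC. Its groups were tight and far apart for their spread. The log2 difference was -0.64 (SE 0.08, 95% interval -0.83 to -0.46), or 1.56-fold more in VC, at an unadjusted p = 1.39e-04 and an adjusted p = 0.0922 over all genes (limma), the smallest after Cd52 among the members. The adjusted p was 0.0859 to 0.262 over the alternatives, and with normexp the difference shrank to -0.23. On the slide shared by both groups it was -0.58. Ccr7, the receptor that guides naive T cells into lymph nodes, read -3.76, -4.28 and -4.56 after o-anisidine, against -4.59, -4.55 and -4.60 in VC. VC arrays were almost identical, and o-anisidine 3 lay among them (0.38, SE 0.20, adjusted p = 0.519). The difference was 0.16 without o-anisidine 1 and 0.02 on the shared slide or with slide as a block. Il7r, the survival receptor of resting T cells, read -4.21, -4.62 and -4.04 after o-anisidine and -4.32, -4.99 and -4.00 in VC, and its 4 kept probes gave 0.15, 0.03, 0.29 and 0.24. The probe with 0.24 was well above background on 2 of 3 VC arrays and was kept only through the o-anisidine group.

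**Figure D2:**
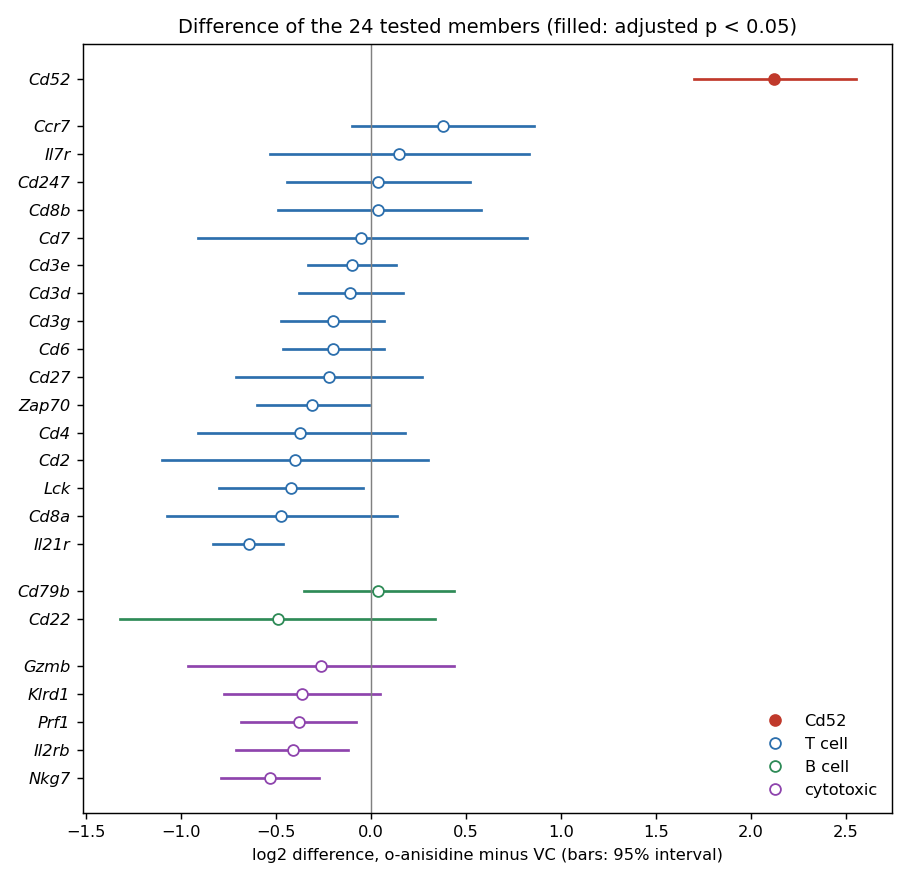
Log2 difference, o-anisidine minus VC (x axis), with its 95% interval for each of the 24 tested members, grouped as Cd52, T cell, B cell and cytotoxic genes from top to bottom; filled points passed the adjusted threshold. The interval of Cd52 runs from 1.70 to 2.55, and the highest upper limit among the other 23 members is 0.86, for Ccr7.

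B cell genes lay near background in this tissue, and none passed the test. Cd79b, a signalling chain of the B cell receptor, read -5.13, -4.98 and -4.88 after o-anisidine, against -4.77, -5.01 and -5.35 in VC, with fully overlapping groups (0.04, SE 0.16, adjusted p = 0.937, limma). Cd22, an inhibitory receptor of B cells, read -5.03, -6.19 and -5.85 after o-anisidine and -4.76, -5.27 and -5.57 in VC. It was well above background on 1 of 3 treated arrays and entered the test only through the VC group, so its value of -0.49 (SE 0.34) rests on signal near background. Blk, a kinase of B cells, was well above background on 0 of 6 arrays.

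All 5 cytotoxic genes had log2 differences below 0, and none passed the threshold. Nkg7, a protein of cytotoxic granules, read -0.74, -0.69 and -0.95 after o-anisidine, against -0.39, -0.15 and -0.25 in VC. Treated arrays were lower throughout, by a log2 difference of -0.53 (SE 0.11, unadjusted p = 0.00232, adjusted p = 0.161). Il2rb, the shared beta chain of the interleukin 2 and 15 receptors, read -2.23, -2.52 and -2.44 after o-anisidine and -1.99, -2.15 and -1.81 in VC (-0.41, SE 0.12, adjusted p = 0.315). Prf1, or perforin, read -2.11, -2.11 and -2.50 after o-anisidine and -1.82, -1.93 and -1.83 in VC (-0.38, SE 0.12, adjusted p = 0.36). For both genes the groups did not overlap, and o-anisidine 3 was the dimmest array for Prf1. Klrd1, the CD94 receptor of NK cells, read -4.05, -4.04 and -4.59 after o-anisidine and -3.77, -3.84 and -4.01 in VC (-0.36, SE 0.17), and its dimmer probe gave -0.32. Gzmb, or granzyme B, read -3.41, -4.10 and -4.52 after o-anisidine and -3.54, -3.97 and -3.73 in VC, with o-anisidine 1 as the brightest array of all. Its 3 kept probes gave -0.26, -0.67 and -0.35 (SE 0.29, 0.23 and 0.25). The value of the brightest probe was -0.01 without o-anisidine 3 and -0.77 on the shared slide, so its size rests on that array. Its sign was reversed under 0 of the 16 alternatives.

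**Figure D3:**
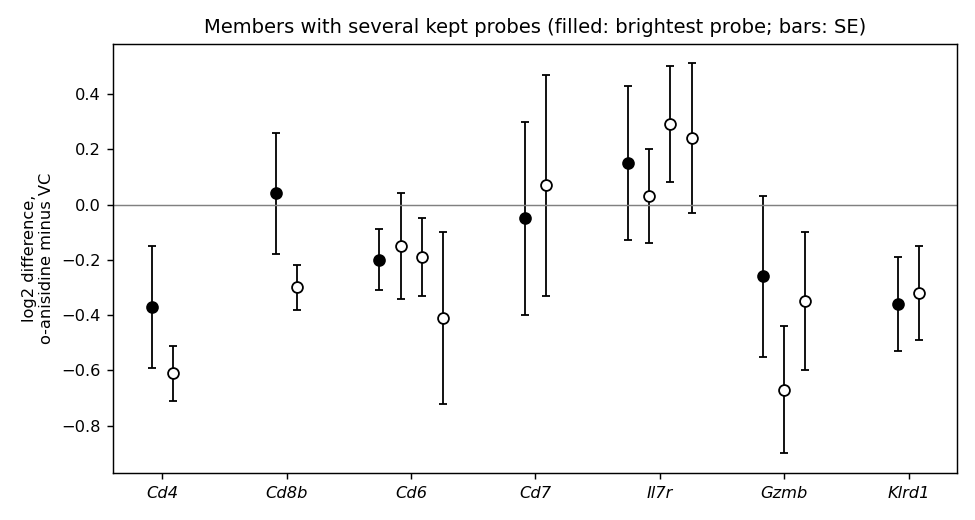
Log2 difference, o-anisidine minus VC (y axis), with its SE for every kept probe of the 7 members that had more than 1; filled points are the brightest probe, used elsewhere. Probes of Cd4, Cd6, Il7r, Gzmb and Klrd1 share a sign, while those of Cd8b (0.04 and -0.30) and Cd7 (-0.05 and 0.07) do not. The dimmest kept probes of Cd4 and Cd6 passed the dim filter only through the VC group, and that of Il7r only through the o-anisidine group. The filter favours the sign of these probes.

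Set side by side, the subsets had median log2 differences of -0.20 over 16 T cell genes and -0.38 over 5 cytotoxic genes, against 0.00 over all genes. No B cell summary is read, since Cd22 passed the dim filter only through the VC group and Cd79b alone (0.04) was measured throughout. Values were below 0 for 12 of 16 T cell and 5 of 5 cytotoxic genes, against 49.1% of all genes tested. At an unadjusted p under 0.05, 3 T cell genes (Il21r, Lck and Zap70) and 3 cytotoxic genes (Nkg7, Il2rb and Prf1) were lower, against 5.14% of all genes in that direction. At the same level, 0 of the 23 members other than Cd52 were higher, against 6.36%. Groups did not overlap, with o-anisidine lower, for 4 of 16 T cell and 4 of 5 cytotoxic genes, against 8.88% of all genes, and with o-anisidine higher for 0 of them, against 9.55%. After adjustment over all genes, 0 T, B or cytotoxic members were called by limma. In bulk tissue, fewer cells of a type and less RNA per cell cannot be told apart.

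The arrays did not share the shift evenly. The median shift of the T cell genes from their VC means came to 0.05, -0.43 and -0.19 in treated animals 1, 2 and 3 and to -0.01, 0.09 and -0.08 in VC animals 1, 2 and 3, so o-anisidine 1 lay within the VC range. For the cytotoxic genes it was -0.25, -0.35 and -0.69 after o-anisidine, against 0.04, -0.07 and 0.02 in VC, with all treated arrays below VC. The cytotoxic shift minus the T cell shift was -0.30, 0.08 and -0.50 on the o-anisidine arrays and 0.05, -0.16 and 0.10 on the VC arrays. On o-anisidine 2, therefore, the subsets did not part. That array was the dimmest of the 6 for 14 of the 23 members other than Cd52 (60.9%), against 13.9% of all genes, and for 12 of 16 T cell genes. Cd22, which passed the dim filter only through the VC group, is among the 14. Without o-anisidine 2 the T cell median was -0.10, and without o-anisidine 1 it was -0.31. Without o-anisidine 3 the cytotoxic median was -0.25, and on the shared slide, where o-anisidine 3 is the sole treated array, it was -0.69.

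Further genes of the same pathways are given next, from lists drawn up by gene name with earlier results of these data known. Of 17 tested genes of T cell receptor signalling and T cell regulation, 0 passed in either direction and the median was -0.05. Grap2, an adaptor of T cells that megakaryocytes also express, was not well above background on any VC array. It entered the test only through the o-anisidine group and did not pass (adjusted p = 0.322, limma). Its fold against the dim VC group was 1.9 by the group means, with o-anisidine higher. The limma interval of its fold ran from 1.32 to 5.91, so a smaller rise than 1.9-fold is not excluded. Skap1, an adaptor of T cell adhesion, had -0.61 (SE 0.24, adjusted p = 0.424). Of 15 B cell genes 0 passed, with a median of -0.12, and Btk among them entered the test only through the VC group. Spib, a transcription factor of B cells and plasmacytoid dendritic cells, had 0.58 (SE 0.20) and Ciita, the master regulator of class II antigen presentation, had -0.27 (SE 0.13).

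Of 15 further cytotoxic and NK cell genes 0 passed, 11 had values below 0, against 49.1% of all genes, and the median was -0.30. Klrb1c, among the 11, was well above background on 2 of 3 treated arrays and entered the test only through the VC group. Xcl1, a chemokine made by killer cells, read -2.44, -2.48 and -2.28 after o-anisidine, against -1.61, -1.75 and -1.86 in VC (-0.66, SE 0.10, adjusted p = 0.108). Faslg, the death ligand of killer cells, read -3.73, -4.27 and -4.02 after o-anisidine and -3.18, -3.28 and -3.24 in VC (-0.77, SE 0.14, adjusted p = 0.148). Both were lower on every treated array, as was Gzmm, a granzyme of NK cells, singled out after its values were seen (-0.52, SE 0.14, adjusted p = 0.274). With o-anisidine lower, groups did not overlap for 3 of the 15, against 8.88% of all genes. With o-anisidine higher, that held for 0, against 9.55%. The 4 genes with values above 0 were Tbx21 (0.19), Cst7 (0.14), Klrk1 (0.13) and Klrc2 (0.05). The Tbx21 probe was very bright, at 5.98 to 6.47 after o-anisidine and 6.03 to 6.18 in VC. Whether its signal in this tissue came from killer cells was not tested. Klrb1, Klrg1, Ncr1, Ncr3, Klrc1 and Ifng, 6 genes of the same list, were too dim to test.

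Ligands of the members gave no call among 7 tested, with a median of -0.10. Ccl19 and Ccl21, the ligands of CCR7, had 0.51 (SE 0.21, adjusted p = 0.44) and 0.77 (SE 0.39, adjusted p = 0.506). The groups overlapped for both. Il7, Il2, Il21, Cd80 and Cd70, which encode ligands of Il7r, Il2rb, Il21r, Cd28 and Cd27 products, were too dim to test.

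Markers of other blood cells were read beside Cd52, since in humans several of those cells carry the protein. Of 15 tested genes shared by all leukocytes, 0 passed, 11 had values below 0, against 49.1% of all genes, and the median was -0.04. Their summed level was 46.7 to 58.6 times the 75th percentile after o-anisidine and 50.4 to 55.2 in VC, so the range of VC lay inside that of o-anisidine. Il2rg, the common cytokine receptor chain, had 0.20 (SE 0.12) and Cd37, a tetraspanin of leukocytes, had -0.23 (SE 0.13). Of 17 macrophage and monocyte genes 0 passed, with a median of -0.10 and a summed level of 108 to 150.0 after o-anisidine and 131 to 144 in VC. Most of that sum came from Lyz2 alone, at log2 values of 6.15 to 6.61 after o-anisidine and 6.44 to 6.64 in VC. Cd14, the lipopolysaccharide coreceptor, had 0.38 (SE 0.12) and Aif1, a calcium-binding protein of macrophages, had -0.24 (SE 0.09). The defining genes Itgam, Cd163 and Marco were too dim to test. On o-anisidine 2 these lists were lowest too, with 10 of 15 leukocyte and 11 of 17 macrophage genes at their minimum. Over all genes the share was 13.9%. Mpeg1, Ccr2 and Siglec1, among the 11, entered the test only through the VC group, and the filter favours a treated minimum for them.

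Few markers of neutrophils, eosinophils and mast cells were measurable. Of 8 tested genes 0 passed, 6 had values above 0 and the median was 0.24, and the summed level was 3.25 to 3.78 after o-anisidine and 2.62 to 2.89 in VC. With o-anisidine higher, groups did not overlap for 3 of 8 (S100a8, S100a9 and Camp), against 9.55% of all genes. With o-anisidine lower, they did not overlap for 1 (Siglec5), against 8.88%. Camp had 0.40 (SE 0.16). S100a9, which forms calprotectin with S100a8, read -0.07, -0.40 and -0.46 after o-anisidine, against -1.27, -1.74 and -2.04 in VC (1.37, SE 0.22, adjusted p = 0.115), and S100a8 had 1.36 (SE 0.26, adjusted p = 0.155). Siglec5, an inhibitory receptor of myeloid cells singled out after its values were seen, read -5.30, -5.61 and -4.91 after o-anisidine, against -4.50, -4.36 and -3.96 in VC. It was lower on every treated array (SE of the log2 difference 0.22, adjusted p = 0.194), and the mast cell tryptase Tpsab1 had -0.01 (SE 0.07). The other 11 genes on the array were too dim to test, among them the eosinophil genes Epx, Ccr3 and Il5ra and the mast cell genes Cpa3, Cma1 and Ms4a2. Of 6 platelet genes 0 passed, with a median of 0.05, and Gp1bb and Ppbp had 0.54 (SE 0.23) and 0.46 (SE 0.23).

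Of 12 tested red blood cell genes 4 rose past the threshold, against 0.0354% of all genes in that direction. For 11 of the 12 every treated array was above every VC array, against 9.55% of all genes. The groups of Slc4a1, an anion exchanger, overlapped (0.26, SE 0.24), and on o-anisidine 1 it was below all VC arrays. Whether the Slc4a1 signal of this tissue came from red cells was not tested. Rhag, a partner of the Rh antigens, entered the test only through the o-anisidine group, being well above background on 0 VC arrays. The summed level of the list was 1500 to 1870 after o-anisidine and 732 to 1010 in VC, nearly all of it from the globin genes Hba-a1, Hbb and Hbb-b1. The log2 differences of the 4 were 2.17 (SE 0.08, adjusted p = 0.002) for Kel, a blood group antigen, 2.61 (SE 0.12, adjusted p = 0.00477) for Rhd, another, 1.97 (SE 0.12, adjusted p = 0.0101) for Hemgn, a nuclear protein of red cell precursors, and 2.34 (SE 0.21, adjusted p = 0.0419) for Ahsp, the chaperone of alpha globin. The median shift of that list was 1.64, 1.52 and 1.43 in treated animals 1, 2 and 3 and -0.02, -0.12 and -0.05 in VC animals 1, 2 and 3. Cd52 itself stood at 2.41, 2.06 and 1.90 in the treated animals and at 0.10, -0.27 and 0.17 in the VC animals. Of 10 tested cell division genes 0 passed and all 10 were higher on every treated array, against 9.55% of all genes, with a median log2 difference of 1.36 and a summed level of 14.4 to 20.1 after o-anisidine and 8.94 to 10.0 in VC. Of these, Aurkb passed the dim filter only through the o-anisidine group. Kif20a and Cdk1 had the smallest p of that list, with adjusted p = 0.0993 and 0.108. The part of any of these cell types in the Cd52 result was not tested.

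**Figure D4:**
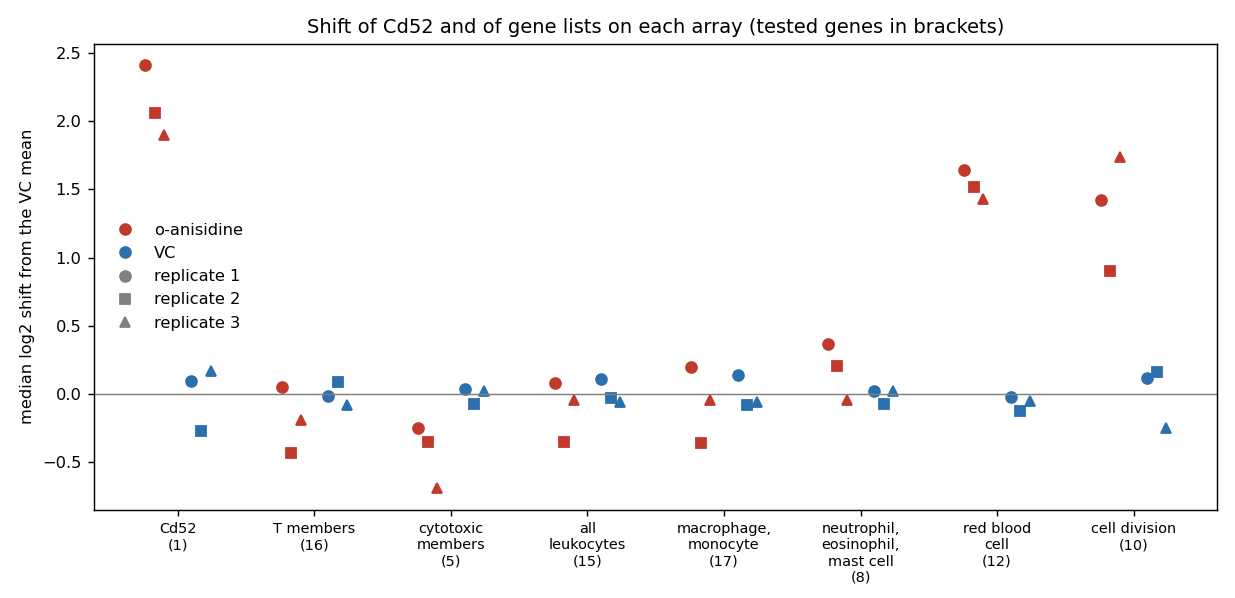
Median log2 shift from the VC mean (y axis) on each o-anisidine array (red) and VC array (blue) for Cd52, the T cell and cytotoxic members and 5 further gene lists, with the number of tested genes in brackets. Cd52 stands at 1.90 to 2.41 on the treated arrays with the red blood cell list at 1.43 to 1.64, while the T cell, leukocyte and macrophage lists lie between -0.43 and 0.20 and the cytotoxic genes lie between -0.69 and -0.25.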

How the data were processed

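Cy3-labelled RNA from the renal cortex of 6 rats was read on 1 Agilent array per rat, and titles gave the groups. The deposited scanner files hold spot intensity from Agilent Feature Extraction 10.7.1.1, per the file headers (10.7 per the submitters' processing notes), on a design annotated on rn4. Per the file headers, the processed intensity is background-subtracted and detrended and was not scaled between arrays, and detection and outlier columns are flags. The authors' value table, by comparison with those files, is intensity over the 75th percentile, linear and uncentred (column medians 0.1037 to 0.1078). Its columns each equalled the file of a differently numbered animal of that group (r = 1). Numbers here follow the scanner files, and which numbering is right is unknown.

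Without control spots 61657 probes remained. The value is log2 processed signal minus log2 of the array's 75th percentile. Probes had to be free of outlier flags (16 were not) and well above background throughout 1 group or the other, which kept 42036. Accessions without version matched RefSeq on GRCr8 for 27460 probes (15284 symbols). Each gene took its kept probe of highest mean, which gave 31087 genes. Groups were compared with limma 3.58.1 in R 4.3.3 (4 residual and 2.11 prior degrees of freedom), two-sided, Benjamini-Hochberg adjusted over all genes, threshold 0.05, and the code was tested on simulated data. A fold against a dim group is a lower limit for the group means only and does not allow for spread between animals. It sets the bright mean against a mean over the dim arrays. Each dim array gave whichever was higher, the faintest signal well above background or that of the probe. All members are named. From further lists, the 2 genes of smallest p, those past the threshold, genes too dim to test and some others are named. Members and lists were chosen with earlier results of these data known. Alternatives changed the background correction, scaling, dim filter, probe choice, variance model, slide, replicate block, source of values and arrays left out. The number of arrays limits the precision.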

Additional observations from a re-analysis of the deposited data

How the results depend on the processing

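Cd52 kept its sign under all 16 alternatives, at a log2 difference of 1.90 to 2.24, and lost the call under 10. These were no filter on dim probes (2.12, adjusted p = 0.0999), slide as a fixed block (1.90, 0.151), the slide with both groups alone (1.90, 0.178), the replicate block (2.12, 0.12) and each left-out array (1.98 to 2.24), and the number of members called was then 0 (0 to 0 over the left-out arrays). Its adjusted p over the alternatives ran from 0.0098 to 0.178. On the slide alone o-anisidine 3 is assumed to vary like the VC animals. The cytotoxic median was -0.69 with slide as a block and on that slide alone, and the T cell median moved by less than the spread between replicates (SD 0.18). The B cell median is not read here either, for the reason given above. It was 0.03 with normexp and 0.04 where Cd79b alone was left, with an SD between replicates of 0.30.

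Over all genes, 11 were higher and 8 lower. The counts were 68 and 18 with normexp, 91 and 29 with a trended robust variance, 5 and 6 with no dim filter, 9 and 5 with all 6 arrays well above background, 2 and 1 with slide as a block, 1 and 1 on that slide alone, and 1 and 0 with the replicate block, against 2 to 16 higher and 1 to 5 lower with an array left out. The cause of these shifts was not tested. Deviations of same-numbered arrays correlated at 0.02, 0.08 and 0.01, and those of differently numbered arrays at -0.05 to 0.03. With 3 arrays per group, and their numbering unsure, these values cannot settle whether animals were paired. The titles name no pairing.

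Among the other members, none was called under any of the 16 alternatives, and values near 0 changed sign for 5 genes. With an array left out, Cd247 ran from -0.06 to 0.24, Cd7 from -0.34 to 0.36 (0.05 without VC 3), Cd79b from -0.11 to 0.18 (-0.01 without o-anisidine 3), Cd8b from -0.19 to 0.22 (-0.05 without VC 3) and Il7r from -0.13 to 0.37. With slide as a block or alone Cd7 had 0.18 and Cd8b -0.06, and averaging kept probes gave 0.01 and -0.13. Cd22 could not be fitted where all 6 arrays had to be well above background. The 3 dim members and the B cell genes are limited by signal over background.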
